A study of Mus musculus with 461 samples.

Results

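Lin28a, Lin28b, Trim71, Hmga1, Hmga2, Igf2bp1, Igf2bp2 and Igf2bp3 are genes of the axis between the RNA-binding protein LIN28 and the let-7 microRNAs, and they are described here across a reprogramming course of mouse fibroblasts. The 8 genes were taken by symbol from a table of 31673 genes, and all 8 were found. Each of the 461 samples is 1 cell, read on the Fluidigm C1 system, which makes a separate library from each captured cell. The starting cells, called day 0 here, were mouse embryonic fibroblasts (MEFs) of OG2 transgenic mice, a line with a green fluorescent reporter of Oct4 (Pou5f1), on a mixed background of CBA (1/8), C57B6 (3/8) and 129SVJ (1/2). The MEFs were kept in medium with 10% FBS, and the cells on the way to pluripotency were in iCD1, a defined medium. The titles name the course 7F without naming its factors, and the published 7F cocktail (Jdp2, Jhdm1b, Mkk6, Glis1, Nanog, Esrrb and Sall4) holds none of the genes described here.

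The titles divide the cells of a day by a prefix, b1, b2 or b3, whose meaning is not given. Day 0 had 20 cells of b1 and 54 of b2, and day 1 had 58 of b2. Day 3 had 61 cells of b1 and 58 of b2. Day 4 had 59 cells, all of b3, so day 4 and prefix b3 cannot be told apart. Day 5 had 79 cells of b2 and day 7 had 65, and the 5 and 2 cells of b1 on these days entered only an alternative fit. A cell had between 0.319 and 7.00 M counts (M, mega) and 2.50 M at the median, and the set of day 4 had the lowest median, 0.983 M. In the day 0 set of b2, 35 of 54 cells had fewer than 8000 genes with counts. The fibroblast markers checked the label of the starting cells: all 10 had counts in every set, and their summed level fell from 4788 and 4453 CPM (counts scaled to a common library size) on day 0 to 571 on day 7. The 10 pluripotency markers summed to 0.287 and 0.423 CPM on day 0, with 7 and 6 of them at 0, and to 2438 CPM on day 5 and 4330 on day 7. Of 5 macrophage markers, 2 or 3 were at 0 in every set, Adgre1 in all of them, and the sum stayed between 1.30 and 19.9 CPM. The 5 endothelial markers summed to between 2.75 CPM (b2, day 0) and 77.97 CPM (day 7), with 3 at 0 in both sets of day 0, and the 4 keratinocyte markers stayed at or below 2.04 CPM. The fibroblast and pluripotency markers moved along the same days as the genes below, and their part in those results was not tested.

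let-7 microRNAs repress messages of growth and of the embryonic state, and they become abundant as cells differentiate. LIN28A and LIN28B bind the let-7 precursors and block their processing, and both messages carry let-7 sites, so each side represses the other. TRIM71, the mouse form of worm LIN-41, is an RNA-binding protein of the early embryo and a classic let-7 target. HMGA1 and HMGA2 are architectural chromatin proteins. IGF2BP1, IGF2BP2 and IGF2BP3 bind and stabilise messages and, with HMGA2, are grouped with LIN28B as oncofetal genes. The tables hold messenger RNA, and mature let-7 was not measured.

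The mature let-7 sequences are shown because the axis is defined by their seed, bases 2 to 8 from the 5′ end, which is in capitals. They come from RefSeq on GRCm38.p6. Of the 11 distinct mature forms matched by name, 10 share 1 seed, and let-7j differs from them in the last seed base.
let-7a-5p: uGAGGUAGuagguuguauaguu
let-7b-5p: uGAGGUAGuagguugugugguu
let-7g-5p: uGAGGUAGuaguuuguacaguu
miR-98-5p: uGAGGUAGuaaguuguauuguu
let-7j: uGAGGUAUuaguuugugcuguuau

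The match to bases 2 to 8 of the shared seed reads CTACCTC in a message, and the longer match, CTACCTCA, adds an A opposite base 1. Both were searched on the message strand of the longest 3′ untranslated region (UTR) of each gene in the GENCODE M21 annotation of GRCm38. Every one of the 8 genes holds CTACCTC, against 1896 of 21027 protein-coding genes (9.02%). Lin28b, Trim71, Hmga2 and Igf2bp1 each hold 4, Lin28a holds 2, and Hmga1, Igf2bp2 and Igf2bp3 hold 1 each. Among genes with a 3′ UTR within 20% of the same length, 4 or more matches were found in 0.236% for Lin28b, 0.505% for Trim71, 0.134% for Hmga2 and 0.355% for Igf2bp1. At least 2 matches were found in 2.10% of genes of a length like that of Lin28a. At least 1 was found in 8.08% for Hmga1, 12.1% for Igf2bp2 and 13.3% for Igf2bp3, so a single match is common at those lengths. A match is a run of letters and was not tested as a site of repression. The 8 genes were chosen as genes of the let-7 axis, so these shares are not a test of enrichment. Their 3′ UTRs, of 1183 to 6337 bases, are also longer than the median of 960 over the protein-coding genes.

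A 30-base stretch of the message strand is shown for each gene, with a second for Lin28a and Trim71, to show the match in its surroundings. Capitals mark the match, and the final capital A is present only in the longer form. All coordinates are GRCm38 and lie in 3′ UTRs.
Lin28a, chr4:134005182-134005211, minus strand: gcacagcctgttgaaCTACCTCAtttttgc
Lin28a, chr4:134004544-134004573, minus strand: gagatcgccacaaacCTACCTCActgtgtt
Lin28b, chr10:45381015-45381044, minus strand: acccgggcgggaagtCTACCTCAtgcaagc
Trim71, chr9:114512465-114512494, minus strand: aacattgcctaagtcCTACCTCAgcttaaa
Trim71, chr9:114512369-114512398, minus strand: agtgataatttctatCTACCTCAactcttt
Hmga1, chr17:27563277-27563306, plus strand: tcctctgttcacaaaCTACCTCtggacggt
Hmga2, chr10:120364217-120364246, minus strand: gccgacattcaatttCTACCTCAgcatcag
Igf2bp1, chr11:95961771-95961800, minus strand: gctgtgcgaagtaaaCTACCTCAaggtgtg
Igf2bp2, chr16:22059466-22059495, minus strand: acacacaaataaaagCTACCTCAggtgttt
Igf2bp3, chr6:49086780-49086809, minus strand: tgcatttttactcaaCTACCTCAggtattc
All 4 matches of Trim71 and both of Lin28a are of the longer form, as are 3 of 4 in Igf2bp1. In Lin28b and Hmga2 1 of 4 is, and the single match of Hmga1 is of the shorter form.

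The genes that share these matches did not move together. Lin28a, Lin28b, Trim71 and Igf2bp1 rose between day 0 and day 7, Hmga2 fell, and Hmga1, Igf2bp2 and Igf2bp3 did not pass the test in any of 7 comparisons. Levels below are CPM of expected counts summed over the cells of a prefix and day, and the test was edgeR's quasi-likelihood F test with Benjamini-Hochberg adjustment over 22378 genes. A gene was called at an adjusted p under 0.05. All 8 genes passed the filter on low counts, Lin28a and Lin28b through the later days only. Only days 0 and 3 had 2 sets, which leaves 2 residual degrees of freedom, and nothing in the labels says that sets came from separate cultures or animals. In a sum over cells, a lower level in each cell and fewer cells with the gene cannot be told apart, so shares of cells are given beside the sums. limma on the mean TPM of the sets called 1 of the 8 genes (Lin28a, day 7) and 0 in every other comparison. With the b1 cells of days 5 and 7 added as sums of their own, edgeR kept only Lin28a on days 4, 5 and 7, Trim71 on days 5 and 7 and Hmga2 on day 7, all against day 0. On log2(mean TPM + 1) limma called no gene of the whole table on days 1, 3, 4 and 5 against day 0. With the added sums edgeR called 37, 158 and 352 of 22314 genes on days 3, 5 and 7, fewer than from the 8 sets. These losses were thus not particular to the 8 genes. The calls below are those of the 8 summed sets.

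**Figure D1:**
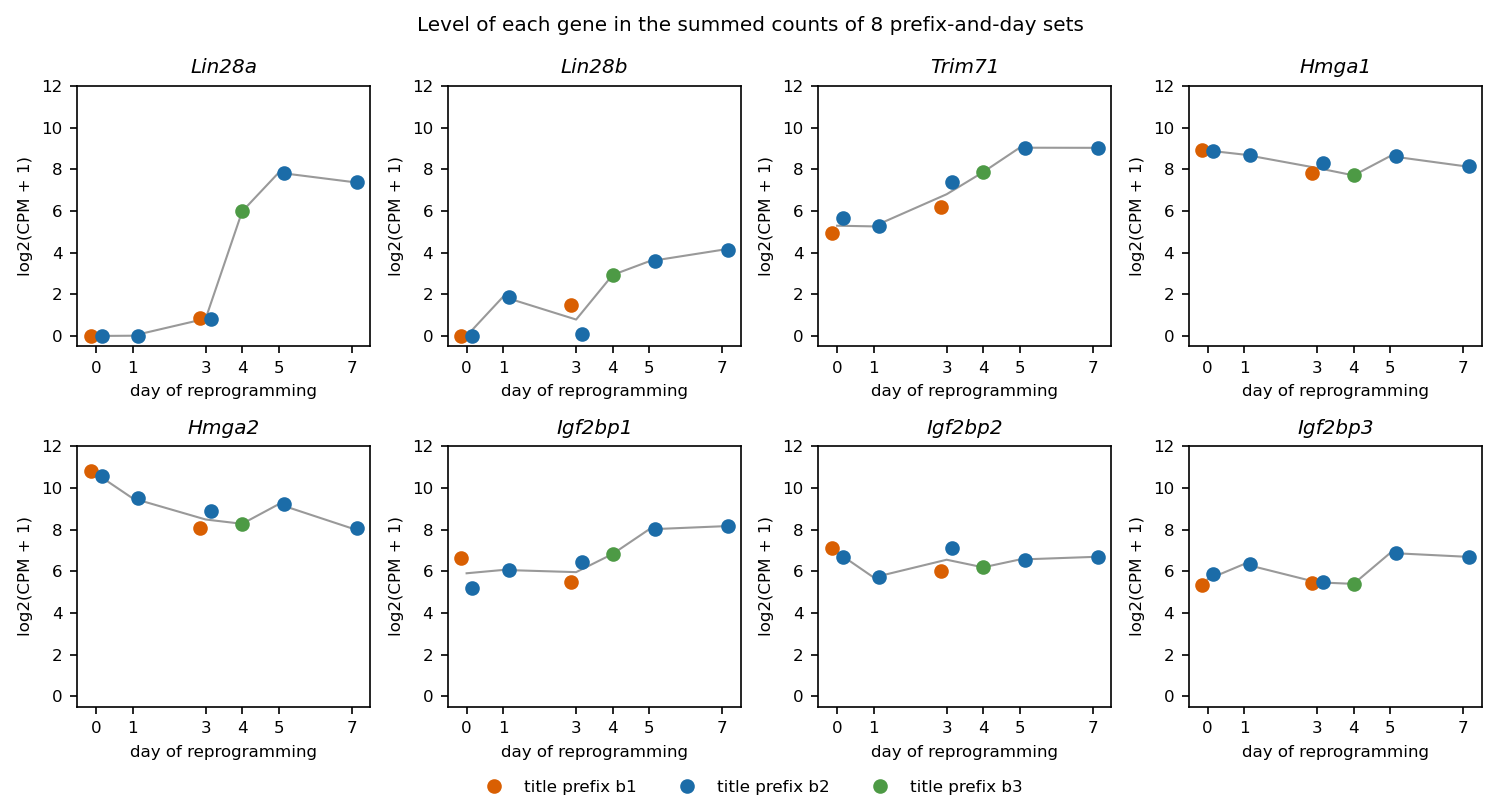
Level of each of the 8 genes in 8 prefix-and-day sets, as log2(CPM + 1) on a linear axis against the day, with 1 point per set, coloured by title prefix, points of b1 and b2 set slightly apart, and a line through the means of the days. Lin28a goes from 0 in both sets of day 0 to 228 CPM on day 5, Trim71 and Igf2bp1 climb, and Hmga2 drops from 1802 and 1507 CPM to 266 CPM.

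Lin28a, which codes for the form of LIN28 found in embryonic stem cells, went from no counts on day 0 to more than 60% of cells on days 5 and 7. It had 0 counts in both sets of day 0, 0.00830 CPM on day 1 (1 count in 1 cell), and 0.813 (b1) and 0.742 CPM (b2) on day 3. It then stood at 62.1 CPM on day 4, 228 on day 5 and 167 on day 7. The sets of days 0 and 1 lie below all later sets, and both day 3 sets lie below the sets of days 4, 5 and 7. Because day 0 had no counts, the rise is given against an assumed 3 counts over both day 0 sets. It was 54.2-fold on day 3 and 11546-fold on day 7. edgeR called Lin28a on days 3, 4, 5 and 7 against day 0. Those calls were largely fixed in advance, because the gene passed the filter on low counts through the later days only. The assumed 3 counts take each count as independent. A single cell with the gene can hold many counts, so these folds are not lower bounds over cells. Between days 3 and 5 the log2 fold change was 8.19 ± 0.73 (SE; edgeR adjusted p = 4.14e-25). From day 5 to day 7 it was -0.45 ± 0.73, which did not pass (edgeR adjusted p = 1).

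The day 3 level of Lin28a came from few cells. It was detected, at 1 TPM (a level scaled by transcript length and to a common sum per cell) or more, in 6 of 61 cells of b1 (9.84%, exact Clopper-Pearson 95% interval 3.70 to 20.2%) and in 2 of 58 cells of b2 (3.45%, 0.420 to 11.9%). A single cell held 99.0% of the counts in the day 3 set of b2, and 47.1% in that of b1. Without these 2 cells the fold of day 3 over the assumed 3 counts was 18.9. Detection was in 0 of 20, 0 of 54 and 0 of 58 cells in the sets of days 0 and 1, which allows shares of up to 15%, 5.56% and 5.17%. On day 4 it was in 31 of 59 cells (52.5%, 39.1 to 65.7%), on day 5 in 50 of 79 (63.3%, 51.7 to 73.9%) and on day 7 in 46 of 65 (70.8%, 58.2 to 81.4%). The intervals of days 4, 5 and 7 overlap each other and lie above those of all earlier sets. Thinned to 300000 counts per cell, the shares of days 4, 5 and 7 were 52.5%, 67.1% and 72.3%. These intervals cover the sampling of cells within a set only, not differences between cultures.

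Lin28a stayed uneven among cells after it appeared. On day 5 the median cell had 24.8 TPM and the highest 526, while the lower quartile was 0. On day 7 the lower quartile was 0.270 TPM, the median 28.1 and the upper quartile 97.9 TPM. The wide spread between cells was thus seen on both days.

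Lin28b, whose protein blocks let-7 precursors in the nucleus and marks fetal tissues and tumours, stayed low and rested on few cells. It had 0 counts in both sets of day 0, 2.69 CPM on day 1, and 1.81 (b1) and 0.0612 CPM (b2) on day 3. It stood at 6.62 CPM on day 4, 10.997 on day 5 and 16.6 on day 7. The test called it higher than on day 0 on every later day. As for Lin28a, these calls were largely fixed in advance, because Lin28b passed the filter on low counts through the later days only. Against an assumed 3 counts on day 0 its rise to day 7 was 1143-fold, which again is not a lower bound over cells. On day 1, however, 1 cell held 91.05% of its counts, and on day 3 1 cell held 88.3% of those in b1. The highest cell held 56.4% on day 4, 34.2% on day 5 and 40.1% on day 7, and without it the fold of day 7 was 699.9. With the highest cell of each set left out, the calls of days 1 and 3 were lost (edgeR adjusted p = 0.320 and 0.240), and those of days 4, 5 and 7 were kept. Leaving out the b1 set of day 3 or the b2 set of day 0 also ended the day 3 call (edgeR adjusted p = 0.685 and 0.074).

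Lin28b was detected in 8 of 59 cells on day 4 (13.6%, 6.04 to 24.98%), 10 of 79 on day 5 (12.7%, 6.24 to 22.05%) and 10 of 65 on day 7 (15.4%, 7.63 to 26.5%). Its share therefore stayed below that of Lin28a in all 3 sets, with no overlap of intervals. Per length, the mean level of Lin28a was 19.1, 32.1 and 16.1 times that of Lin28b on days 4, 5 and 7. Without the cell with the most Lin28b the ratios were 38.98, 45.99 and 20.98, so the first rests on 1 cell. In the b1 set of day 3 the means were 0.403 TPM for Lin28a and 0.477 TPM for Lin28b, and without that cell they were 0.41 and 0.0835 TPM.

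Trim71 was present before reprogramming and was called from day 3 on. It stood at 29.7 (b1) and 49.1 CPM (b2) on day 0, 37.3 on day 1, 72.9 (b1) and 168 (b2) on day 3, 232 on day 4, 525 on day 5 and 523 on day 7. Both day 3 sets lie above both day 0 sets and above day 1, and within b2 alone the order was day 1, day 0, day 3, then days 7 and 5 almost level. The log2 fold change against day 0 was 1.61 ± 0.41 on day 3 (edgeR adjusted p = 0.00494), 2.56 ± 0.47 on day 4 (9.12e-06), 3.73 ± 0.48 on day 5 (2.83e-12) and 3.73 ± 0.48 on day 7 (1.99e-12). Day 1 gave -0.08 ± 0.49 (edgeR adjusted p = 1). The day 3 call was lost without the b2 set of day 3 (log2 fold change 0.89, edgeR adjusted p = 1) or without the b1 set of day 0 (1.30, 0.0581). Between days 3 and 5 Trim71 gained a further 2.12 ± 0.47 (edgeR adjusted p = 0.000983), a call that was lost without the b1 set of day 3 (1.64, 0.635) or without cells with few genes (1.85, 0.0613).

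The rise of Trim71 had a part in the share of cells and a part in the level. It was detected in 12 of 20 (60%) and 21 of 54 cells (38.9%) on day 0, and in 35 of 61 (57.4%) and 32 of 58 (55.2%) on day 3, with overlapping intervals. On day 4 it was in 54 of 59 cells (91.5%, 81.3 to 97.2%), on day 5 in 77 of 79 (97.5%) and on day 7 in 62 of 65 (95.4%). The median cell went from 1.91 (b1) and 0.170 TPM (b2) on day 0 to 15.5 TPM on day 4, 66.5 on day 5 and 72.97 on day 7. On day 3 the medians were 1.99 (b1) and 1.53 TPM (b2), and in b2 1 cell held 31.1% of the counts. Between days 0 and 3 the median cell thus stayed near its level in b1 and was higher in b2. In b2 the median already stood at 1.52 TPM on day 1, with Trim71 detected in 33 of 58 cells (56.9%).

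Hmga2 moved the other way. With 1802 (b1) and 1507 CPM (b2) on day 0 it was the highest of the 8 genes in both sets, per length as well. It stood at 725 CPM on day 1, 265 (b1) and 482 (b2) on day 3, 310 on day 4, 595 on day 5 and 266 on day 7. Every later set lies below both day 0 sets, and day 5 is the highest set after day 1. The log2 fold change against day 0 was -2.15 ± 0.38 on day 3 (edgeR adjusted p = 2.14e-06), -2.42 ± 0.50 on day 4 (0.000155), -1.47 ± 0.48 on day 5 (0.0426) and -2.63 ± 0.51 on day 7 (1.52e-05). Day 1 gave -1.19 ± 0.47, which did not pass (edgeR adjusted p = 0.345). The day 5 call lies close to the threshold and was lost in 10 of 13 alternatives, DESeq2 among them (adjusted p = 0.0598), while its log2 value kept within -2.10 and -1.17. Removing either of the day 3 sets, b1 or b2, was enough to lose it (edgeR adjusted p = 0.245 and 0.271). The day 3 call was lost without the b1 set of that day (edgeR adjusted p = 0.168).

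Hmga2 remained detected in most cells as its level fell. It was found in all 20 and all 54 cells of day 0, in 67 of 79 cells on day 5 (84.8%, 74.97 to 91.9%) and in 53 of 65 on day 7 (81.5%, 69.97 to 90.1%). The median cell had 642 (b1) and 297 TPM (b2) on day 0, 96.9 TPM on day 5 and 29.9 on day 7. On day 7 the lower quartile was 2.14 TPM and the upper quartile 108 TPM, and the highest cell had 615 TPM, so the range between cells was wide at the end of the course.

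Hmga1, the other member of the family, did not pass the test. It stood at 484 and 473 CPM on day 0, 417 on day 1, 224 and 318 on day 3, 208 on day 4, 396 on day 5 and 285 on day 7. Its log2 fold changes against day 0 lay between -1.20 (day 4, edgeR adjusted p = 0.247) and -0.20 (day 1), below 0 on all 5 days. Per length, Hmga2 was 1.60 and 1.30 times as high as Hmga1 in the 2 sets of day 0, and between 0.363 and 0.694 times as high in every later set.

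**Figure D2:**
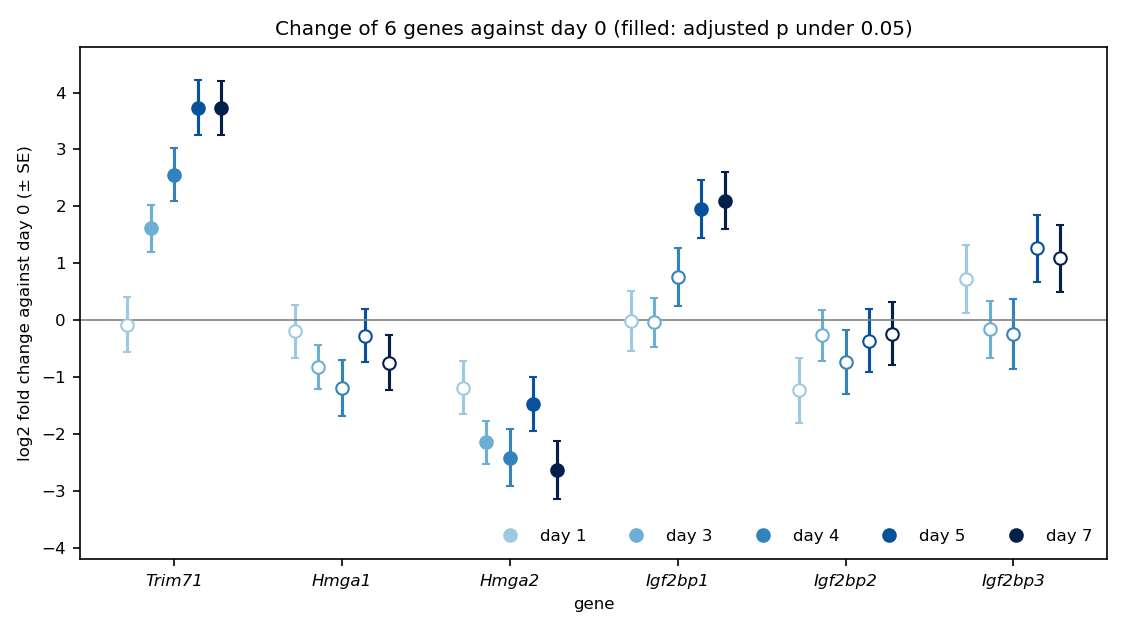
Log2 fold change against day 0 with its standard error for the 6 genes that had counts on day 0, on 5 later days (light to dark), from the edgeR fit on 8 sets, with filled points where the adjusted p was under 0.05. Trim71 reaches 3.73 on days 5 and 7, Igf2bp1 is called on days 5 and 7 only, Hmga2 is below 0 throughout, and Hmga1, Igf2bp2 and Igf2bp3 have open points only.

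Of the 3 IGF2BP genes, Igf2bp1 was the one that passed the test, and differences among the 3 were not tested. Igf2bp1 stood at 97.9 (b1) and 35.3 CPM (b2) on day 0, 65.9 on day 1, 43.3 (b1) and 86.3 (b2) on day 3, 113 on day 4, 258 on day 5 and 285 on day 7. The sets of days 0, 1 and 3 overlap, and the sets of days 4, 5 and 7 lie above all of them. Its log2 fold change against day 0 was 0.76 ± 0.51 on day 4 (edgeR adjusted p = 0.753), 1.95 ± 0.50 on day 5 (0.00403) and 2.10 ± 0.50 on day 7 (0.00121), and 1.99 ± 0.50 between days 3 and 5 (0.00776). The day 5 call was lost without the b2 set of day 0 (1.39, 0.0936) and in DESeq2 (adjusted p = 0.0886), and leaving out the b1 set of day 0 gave a call on day 4 (1.68, 0.0402). The size of its day 5 and day 7 changes also hung on the day 0 sets, which differed: they were 2.87 and 3.02 without b1 and 1.39 and 1.54 without b2. The day 7 change was 1.30 with the b1 cells of days 5 and 7 added as sums, and 2.27 with the prefix as a block. Neither was called. In b1 the mean of Igf2bp1 was 15.6 TPM on day 0 and 14.4 on day 3. It was 17.8 TPM over 5 cells on day 5 and 7.82 over 2 cells on day 7. The call between days 3 and 5 was lost without the b1 set of day 3 (1.58, edgeR adjusted p = 0.836) or without cells with few genes (1.87, 0.0905), and in DESeq2 (adjusted p = 0.119). It was detected in 17 of 20 and 37 of 54 cells on day 0, in 77 of 79 on day 5 and in all 65 on day 7, where no cell was below 3.22 TPM.

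Igf2bp2, the member expressed most widely in adult tissues, stood at 138 and 103 CPM on day 0, 51.2 on day 1, 62.7 and 138 on day 3, 72.01 on day 4, 93.7 on day 5 and 102 on day 7. The lowest set was day 1, and day 0 and day 3 overlap. Its largest log2 change was -1.24 ± 0.58 on day 1 (edgeR adjusted p = 0.584). Igf2bp3 stood at 40.2 and 56.9 CPM on day 0, 80.4 on day 1, 42.3 and 44.4 on day 3, 41.1 on day 4, 117 on day 5 and 103 on day 7. The sets of days 5 and 7 were the highest, but the log2 fold changes of 1.26 ± 0.59 and 1.09 ± 0.59 against day 0 did not pass (edgeR adjusted p = 0.285 and 0.3504). A missed threshold does not show that these genes were level, since the standard errors are near 0.6 on the log2 scale.

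By comparison, the count of called genes among the 8 read as follows against all genes tested. On day 1 against day 0, 1 of the 8 was called and 1.18% of all genes. On day 3 it was 4 of 8 against 3.14%, and on day 4 again 4 of 8 against 3.03%. On days 5 and 7 it was 5 of 8 each, against 4.73% and 6.6% of all genes. Between days 3 and 5 it was 3 of 8 (Lin28a, Trim71 and Igf2bp1, all higher on day 5) against 1.71%. The genes called against day 0 include Lin28b on every day and Lin28a from day 3 on. Both had no counts on day 0 and passed the filter through later days only, so their calls were largely fixed in advance. The 8 genes were also chosen with earlier results known, so these counts are a description only. The median log2 fold change of the 8 genes was 1.61 on day 5 and 1.59 on day 7 against day 0, where that of all genes was 0 on both days. These medians do not change with Lin28a and Lin28b at their folds over an assumed 3 counts, which still rank above the other 6 genes. Between days 5 and 7 edgeR called 0 of the 8, against 0.554% of all genes, and DESeq2 also called 0. Only Hmga2 had an unadjusted p under 0.05 there, with 595 CPM on day 5 and 266 on day 7 (log2 fold change -1.16 ± 0.52, edgeR adjusted p = 0.911). These comparisons are not independent of each other: those against day 0 share the day 0 sets, and the others share the sets of days 3 or 5.

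**Figure D3:**
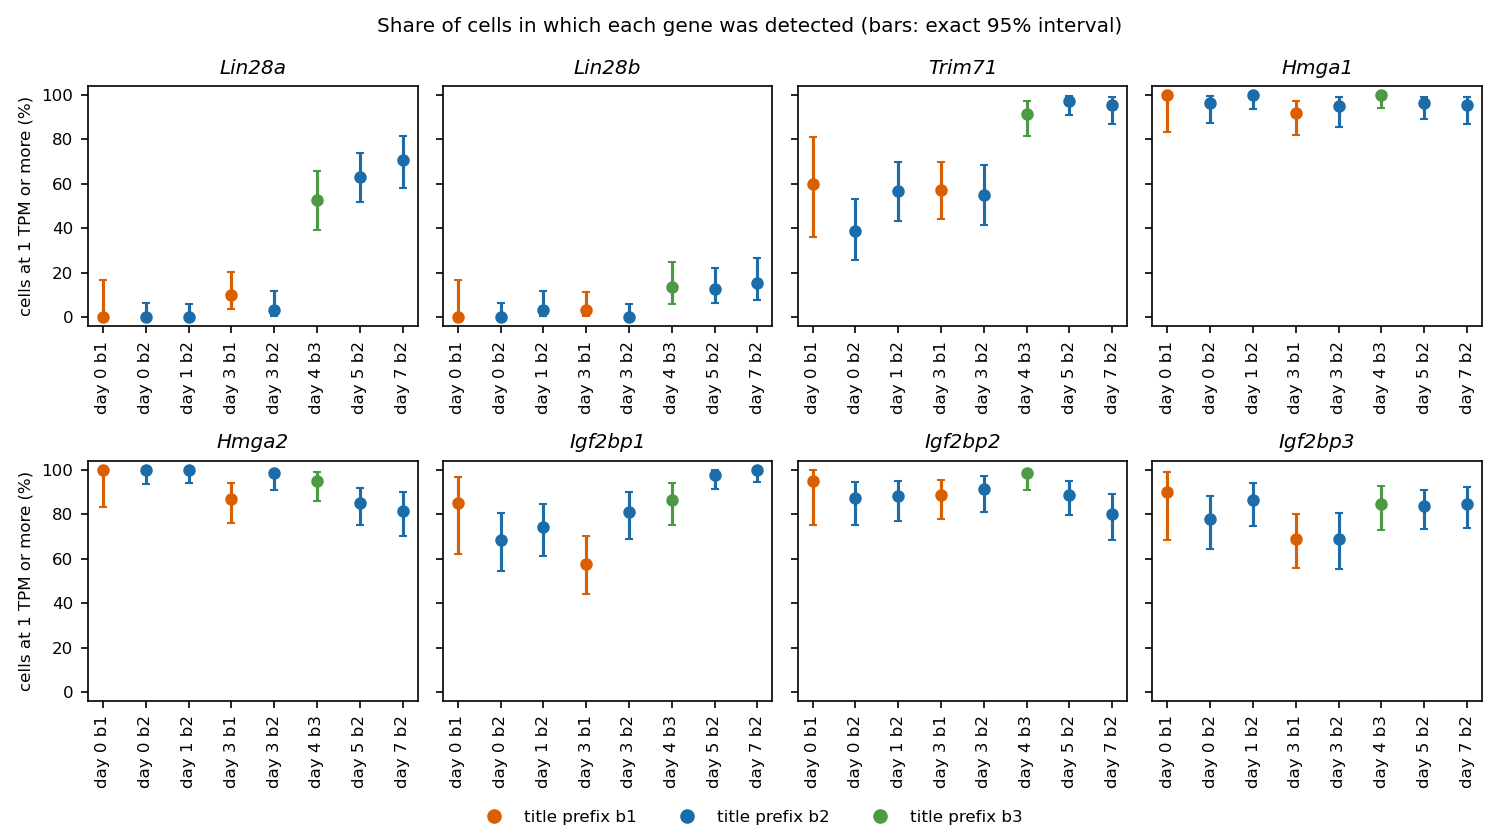
Percent of cells with 1 TPM or more of each gene in 8 prefix-and-day sets, with exact 95% intervals, coloured by title prefix. Lin28a lies at or below 9.84% through day 3 and between 52.5% and 70.8% from day 4, Lin28b never exceeds 15.4%, Trim71 rises to over 90% from day 4, and Hmga2 declines to 81.5%.

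Which of these genes were found in the same cells was read within each set, without a test, because cells are not replicates. Counts per cell also differed within a set, from 1.01 to 7.00 M in the b2 set of day 7. On day 5 all 50 cells with Lin28a also had Trim71 and Igf2bp1, and of the 29 cells without Lin28a, 27 had Trim71 and 27 had Igf2bp1. On day 7 all 46 cells with Lin28a had Trim71, as had 16 of the 19 without it. Trim71 thus covered nearly all cells in which Lin28a appeared, and many in which it did not. Spearman's rho between the levels of Lin28a and Trim71 was 0.547 over 59 cells on day 4, 0.580 over 79 on day 5 and 0.443 over 65 on day 7. That between Lin28a and Igf2bp1 was 0.499, 0.512 and 0.128. Between Lin28a and the counts per cell, rho was 0.205, 0.302 and 0.0113 on these days, and its part in the values was not tested.

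Within cells, rho between Trim71 and Igf2bp1 was highest on day 4 and in the b2 set of day 3. It was 0.233 (b1) and 0.197 (b2) on day 0, 0.244 on day 1, 0.380 (b1) and 0.5999 (b2) on day 3, 0.662 on day 4, 0.440 on day 5 and 0.0282 on day 7. These values were not tested against each other. On day 7 both genes were at high levels in nearly every cell.

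Hmga2 level had little relation to Lin28a in the same cells, with rho of 0.0572 on day 4, 0.05004 on day 5 and 0.228 on day 7. Of the 50 cells with Lin28a on day 5, 43 also had Hmga2, and of the 29 without it, 24 had. Hmga2 had negative values with the pluripotency markers: rho with their mean log2(TPM + 1) was -0.178 on day 4, -0.581 on day 5 and -0.236 on day 7. With the fibroblast markers it was 0.186, 0.554 and 0.432. Igf2bp2, a gene that HMGA2 is known to activate, had rho with Hmga2 of 0.507 on day 4, 0.184 on day 5 and 0.578 on day 7, and between -0.113 and 0.259 in the sets of days 0, 1 and 3. Genes detected per cell also went with Hmga2 on day 7 (rho 0.421) and with Igf2bp2 (0.393), and their part was not tested.

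**Figure D4:**
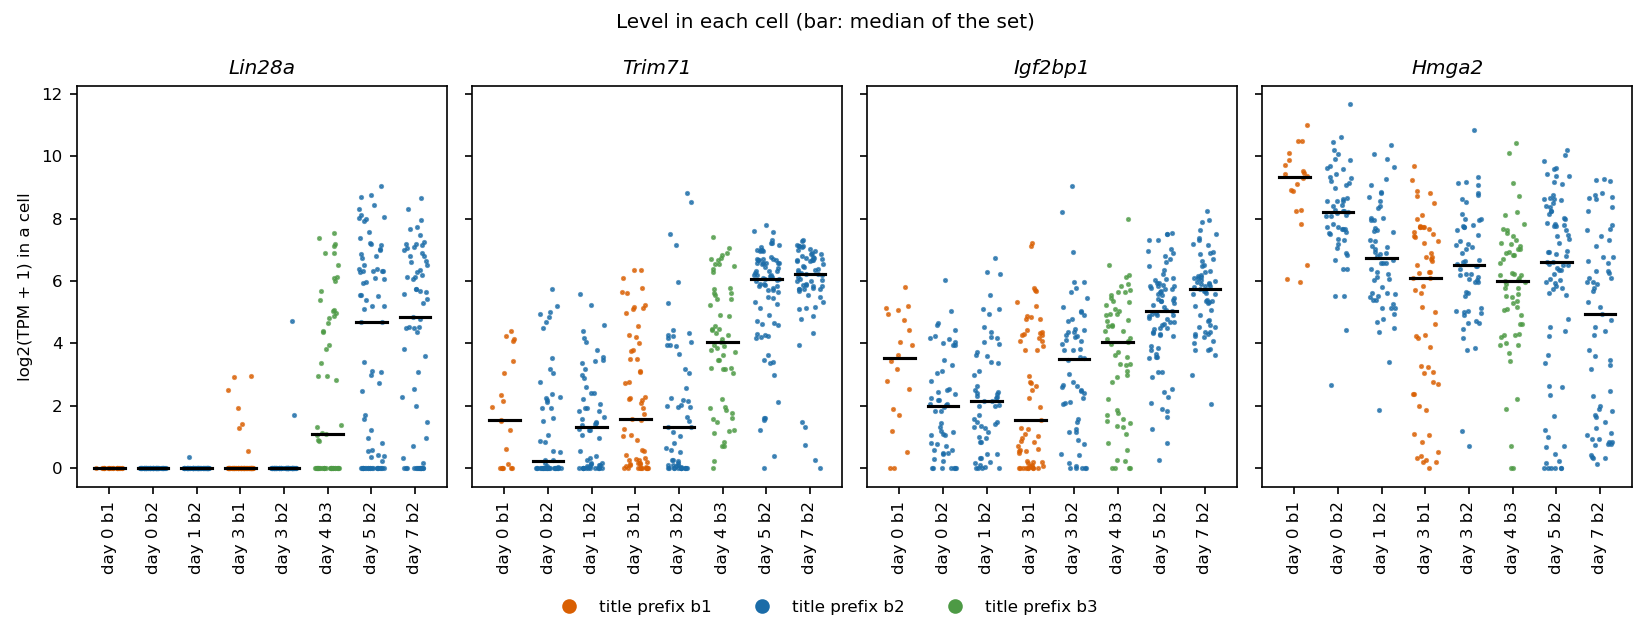
Level in each cell, as log2(TPM + 1), of Lin28a, Trim71, Igf2bp1 and Hmga2 in 8 prefix-and-day sets, with 1 point per cell, coloured by title prefix, and a bar at the median. Lin28a is at 0 in most cells through day 3 and spans 0 to 526 TPM on day 5, Trim71 and Igf2bp1 gather at high levels on day 7, and Hmga2 spreads from near 0 to 615 TPM there.

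Most cells with Lin28a had no Lin28b. On day 5, 8 cells had both, 42 only Lin28a, 2 only Lin28b and 27 neither. On day 7 the numbers were 9, 37, 1 and 18, and on day 4 they were 4, 27, 4 and 24. With the pluripotency markers, Lin28b had rho of -0.403 on day 5 and -0.351 on day 7, where that of Lin28a was 0.0881 and -0.107. On day 4 Lin28a went with these markers at rho 0.504, and Lin28b stood at -0.224. All 10 cells with Lin28b on day 5 also had Hmga2, against 57 of the 69 without it. With 8 to 10 positive cells per set, the values for Lin28b rest on few cells.

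**Figure D5:**
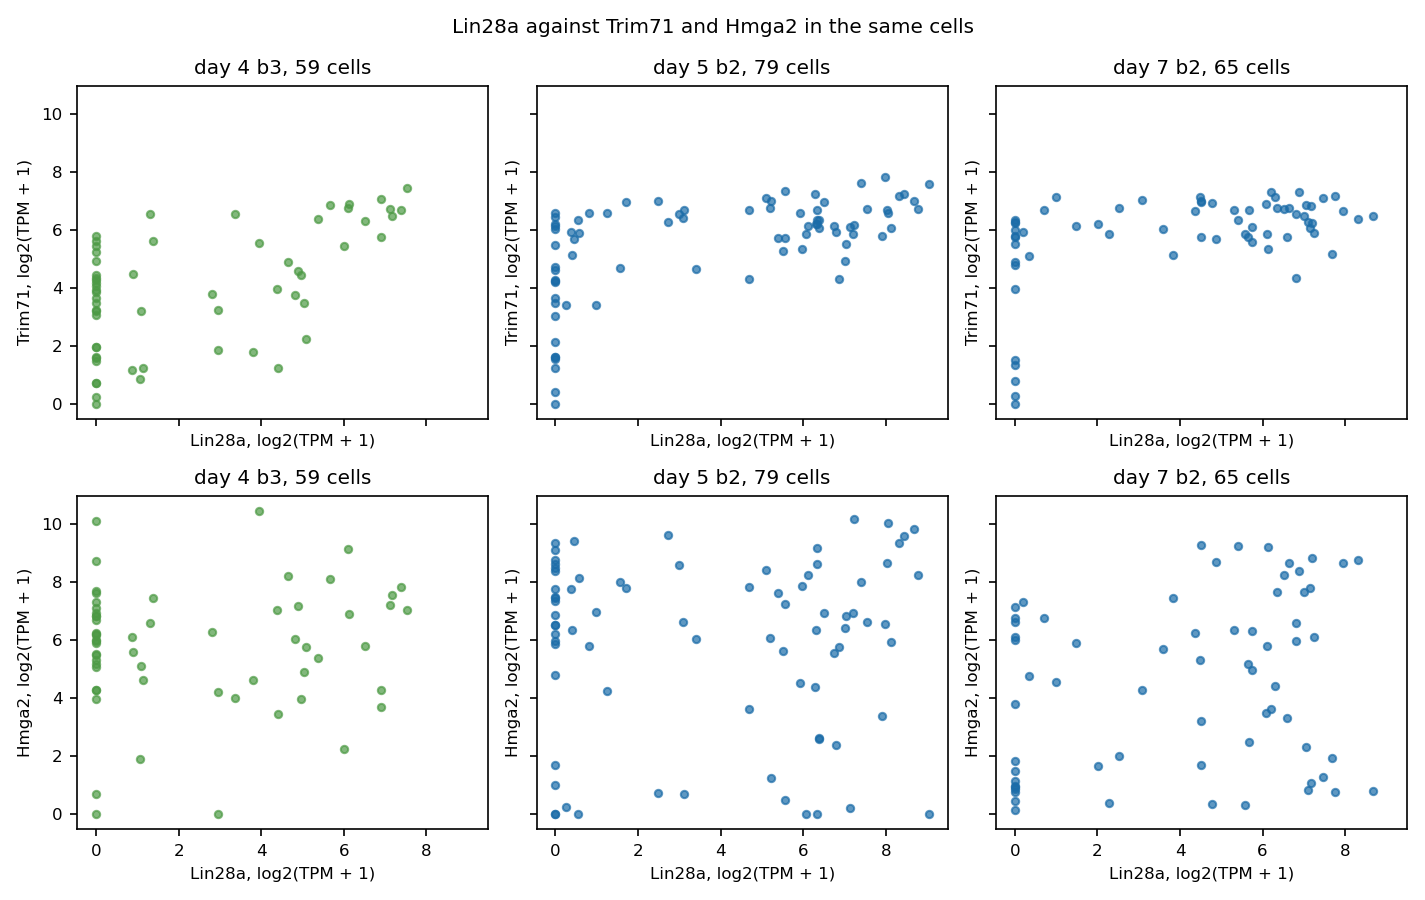
Lin28a against Trim71 (upper row) and against Hmga2 (lower row) in the same cells, as log2(TPM + 1), for the 59 cells of day 4, 79 of day 5 and 65 of day 7, with 1 point per cell. Trim71 tends to be higher in cells with more Lin28a (rho 0.547, 0.580 and 0.443), while Hmga2 is spread widely at low and at high Lin28a (rho 0.0572, 0.05004 and 0.228).

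Expression of the let-7 machinery was read from a list of 17 genes of microRNA processing and silencing, from Drosha and Dicer1 to the Argonautes. All 17 were tested, and edgeR called 0 of them in each of the 7 comparisons, against 0.554% to 6.6% of all genes. For a list of 17, 0 calls are near those shares. An unadjusted p under 0.05 was seen for 0 to 3 of them. The 3 were on day 7 against day 0, where 16.3% of all genes had such a p. Dicer1, which cuts the let-7 precursor, stood at 47.2 and 30.8 CPM on day 0, 51.9 on day 5 and 79.8 on day 7. Drosha, which makes the precursor, stood at 30.4 and 54.6 CPM on day 0 and 99.5 on day 7, and Xpo5, which exports it, at 13.5 and 48.5 CPM and 103.7 on day 7. The median log2 fold change of the list was 0.77 on day 7 against day 0.

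The 5 genes listed under let-7 tailing and decay (Tut4, Tut7, Tut1, Dis3l2 and Tent2) were also all tested. Of these, edgeR called 0 in each of the 7 comparisons, against 0.554% to 6.6% of all genes. At most 1 had an unadjusted p under 0.05, against 4.2% to 16.3% of all genes. Tut4, the uridylating enzyme that works with LIN28A, stood at 69.6 and 85.9 CPM on day 0, 64.2 on day 5 and 87.1 on day 7. Its relative Tut7 stood at 31.2 and 31.97 CPM on day 0 and 8.26 CPM on day 7. Dis3l2, the nuclease that degrades the tailed precursor, had 1.92 and 8.92 CPM on day 0 and 15.3 CPM on day 7. Of 17 let-7 loci and host genes, 3 host genes were in the tables (Mir99ahg, Huwe1 and Wdr82). Here too edgeR called 0 in each comparison, against 0.554% to 6.6% of all genes. Mir99ahg, the host of let-7c on chromosome 16, stood at 8.78 and 6.77 CPM on day 0 and 3.88 CPM on day 7. Huwe1, the host of let-7f and miR-98, stood at 151 and 179 CPM on day 0 and 368 on day 7, and Wdr82 at 65.04 and 63.6 and at 157 CPM. The latter 2 had an unadjusted p under 0.05 on day 7, where 16.3% of all genes had one, and the median log2 fold change of the 3 was 1.16.

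Among 30 other genes listed as let-7 targets, of which 21 hold CTACCTC, the calls went both ways. On day 7 against day 0, 3 rose and 5 fell, where 3.55% of all genes rose and 3.05% fell, and the median log2 change over the 30 was 0.13. On day 5 3 rose and 4 fell, against 2.56% and 2.18% of all genes, and on day 4 3 and 3, against 2.07% and 0.965%. On day 3 it was 2 and 3, against 2.1% and 1.04%, and on day 1 it was 1 and 2, against 0.934% and 0.25%. Igdcc3, a surface protein of the immunoglobulin superfamily, went from 0 and 0.0331 CPM on day 0 to 37.4 CPM on day 7 (edgeR adjusted p = 8.33e-12). Arid3b, a DNA-binding protein, went from 0.0359 and 0.728 to 69.9 CPM (7.52e-10). Nr6a1, a germ cell nuclear receptor whose 3′ UTR holds 8 matches, rose by 2.50 ± 0.51 on the log2 scale (7.15e-05). Those that fell were Col1a2, a collagen chain (log2 change -7.57 ± 0.70), and Thbs1, a matrix protein (-7.93 ± 0.74), with the growth factor receptor Igf1r and the cyclins Ccnd1 and Ccnd2. CTACCTC was found 2 times in Igdcc3, 1 time in Arid3b, 1 time in Col1a2 and 2 times in Igf1r, and 0 times in Thbs1, Ccnd1 and Ccnd2. Col1a2 is also among the fibroblast markers above. Ezh2, a Polycomb methyltransferase, was called between days 3 and 5, with a log2 change of 1.73 ± 0.50 (edgeR adjusted p = 0.0326).

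For each gene but Hmga1, the 3 genes with the most similar course over the 8 sets were taken by Pearson's r of log2(CPM + 1), among 8746 named genes with a mean of 10 CPM or more. Lin28a was most like Rhox5 (r = 0.991), Ap1m2 (0.986) and Dppa4 (0.980), a pluripotency gene. Trim71 was most like Grsf1 (0.987), Rfc5 (0.986) and Epp13 (0.985). Igf2bp1 was most like Casc3, Clp1 and Maz (0.985 to 0.969), and Lin28b like Cenpf, Pold1 and Meaf6 (0.976 to 0.953). Hmga2 was most like Actr3 (0.966), the actin gene Actb (0.962) and Lox (0.960), a crosslinker of collagen. Igf2bp2 was closest to Usp46, Map1b and Eps8 (0.961 to 0.951), and Igf2bp3 to Dctpp1, Trmt5 and Ncl (0.982 to 0.978). With 8 sets these values describe a shared shape only.

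Some of the genes overlap others in the reference annotation, and whether the counting used strand is not given in the sources used here. Hmga2 (chr10:120361275-120476469, GRCm38) overlaps 2 antisense RNAs, and Hmga1 overlaps AI413582 and Gm49774 on the opposite strand. Trim71 overlaps C130032M10Rik, Igf2bp3 overlaps Malsu1, Lin28a overlaps Gm13061 and Igf2bp1 overlaps Gm29202, all on the opposite strand. Without strand, reads of such partners cannot be told apart. Reads that match more than 1 place in the genome are shared out by estimation in such counts, and how that was done for these genes is uncertain.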

How the data were processed

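Single-cell RNA sequencing was done on 461 mouse cells of 6 days. Per the submitters' processing notes, bcl2fastq split the reads by cell and RSEM 1.2.22 estimated gene levels. Aligner, build and annotation: not given in the sources used here. The authors deposited expected counts (RSEM estimates, 9.11% of values not whole) and TPM values, which they scaled within each cell (sums of 994110 to 999272). A cell had 0.319 to 7.00 M counts (M, mega). Of 31673 gene identifiers, 31426 had a symbol in the reference.

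The 8 genes and the gene lists were chosen with earlier results of these data known. Cells are not replicates: expected counts were summed over each title prefix and day and then rounded. The 8 sums of 10 or more cells entered 1 edgeR 4.0.16 fit (R 4.3.3; TMM factors 0.833 to 1.15, filterByExpr by day, quasi-likelihood F test, two-sided, day as the only term). With 2 residual degrees of freedom and an infinite estimated prior, each p uses a spread shared by all genes, and a day with 1 set borrows the spread of days 0 and 3. CPM uses the TMM factors. Standard errors are the size of the log2 fold change divided by the root of F. Intervals are exact Clopper-Pearson at 95%, and the limit for 0 cells is 3 over the number of cells. The test was checked on simulated sums drawn with the spread that the fit itself had estimated. That check cannot show how the test behaves where 1 cell holds most of the counts. The alternatives were DESeq2 1.42.0 and its size factors, limma 3.58.1 on log2(mean TPM + 1 or + 0.1), no filter, all 10 sums, a block on the prefix, each set of days 0 and 3 left out, and cells with under 8000 genes or each gene's highest cell left out. Folds over an assumed 3 counts and the ratio of Lin28a to Lin28b without the highest cell were added after seeing the data. Detection was also taken at 5 TPM, at any count and after thinning to 300000 counts. Named genes were the 8 genes, the 3 most similar genes of each, and list members that passed, up to 6, with others given as levels. The genes most similar to Hmga1 are not reported here. The levels of Dicer1, Drosha, Xpo5, Tut4, Tut7, Dis3l2, Mir99ahg, Huwe1 and Wdr82 were added after their values were seen. UTRs came from GENCODE M21 and microRNAs from RefSeq. Figures used matplotlib 3.10.9, and tables pandas 2.3.3 and scipy 1.17.1.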

Additional observations from a re-analysis of the deposited data

Results flagged for a closer look

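Between days 0 and 3, 3 genes moved in opposite directions within the 2 title prefixes, on log2(CPM + 1). Igf2bp1 had -1.16 within b1 and 1.27 within b2. Igf2bp2 had -1.12 within b1 and 0.41 within b2. Igf2bp3 had 0.071 within b1 and -0.35 within b2. Each value comes from 1 set per day and prefix, so the difference between prefixes was not tested. None of the 3 was called between days 0 and 3.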

How the results depend on the processing

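The test rests on 2 residual degrees of freedom, and its calls depended on the tool. As reported, 1, 4, 4, 5 and 5 of the 8 genes were called on days 1, 3, 4, 5 and 7 against day 0, and 3 between days 3 and 5. limma on TPM, with a pseudocount of 1 or 0.1, called 0 on days 1, 3, 4 and 5, 1 on day 7 and 0 between days 3 and 5, and all 10 sums gave 0, 0, 1, 2, 3 and 0. DESeq2 called 3 on day 5. Leaving out each gene's highest cell gave 0 on day 1, and leaving out cells with under 8000 genes gave 1 between days 3 and 5. Without 1 set of day 0 or 3 the calls ran from 2 to 3 on day 3, and from 1 to 3 between days 3 and 5. The cause of these losses was not tested. Over all genes limma with a pseudocount of 1 also called none on days 1, 3, 4 and 5. All 10 sums called 37, 158 and 352 of 22314 genes on days 3, 5 and 7. On day 3 the reported fit called 703 of 22378 genes, and DESeq2 called 1559. Between days 5 and 7, 0 were called in every alternative run.

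The labels give prefix numbers, and the deviations of b2 from b1 on days 0 and 3 had r = 0.0833 over 9315 genes, so the sets were not treated as paired. With the replicate block, 0, 2, 3 and 4 were called on days 1, 3, 5 and 7, and 1 between days 3 and 5, and day 4 could not be fitted apart from its prefix. The calls lost under it were Lin28b on days 1 and 3, Trim71 on day 3, Hmga2 on day 5, Igf2bp1 on days 5 and 7 (adjusted p = 0.281 and 0.203), and Trim71 and Igf2bp1 between days 3 and 5. Under it Igf2bp1 turned to 0.16 on day 1 and 0.057 on day 3. Over all genes the block called 191 of 22378 on day 3, where the reported fit called 703.

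Of 720 log2 fold changes under alternatives, 599 kept their direction and their side of the threshold, 86 lost a call, 1 gained one and 34 changed sign, all of them changes that were not called. Without 1 set, Igf2bp1 ran from -0.57 to 0.90 on day 1 and from -0.62 to 0.88 on day 3, Trim71 from -0.40 to 0.33 on day 1, Igf2bp3 from -0.39 to 0.11 on day 3 and from -0.47 to 0.033 on day 4, and Igf2bp2 from -0.94 to 0.19 on day 3 and from -0.56 to 0.58 between days 3 and 5. In limma with pseudocounts of 1 and 0.1, Igf2bp1 gave 0.076 and 0.091 on day 1 and 0.91 and 0.97 on day 3. Igf2bp2 gave 0.054 and 0.054 on day 3 and 0.096 and 0.099 on day 7. Between days 5 and 7 limma gave 0.13 and 0.13 for Trim71 and 0.11 and 0.11 for Igf2bp3. Without cells with few genes, Igf2bp1 gave 0.059 on day 1 and 0.081 on day 3, Igf2bp2 0.17 between days 3 and 5, and Trim71 0.042 and Igf2bp3 0.082 between days 5 and 7. Without the highest cells, Igf2bp2 gave 0.0018 on day 7 and 0.11 between days 3 and 5, and Trim71 0.015 between days 5 and 7. There Trim71 also gave 0.056 with DESeq2 and with its size factors, and with all 10 sums Trim71 gave 0.32 and Igf2bp1 -0.25.

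Shares of cells stayed within the 95% interval of the reported value in 145 of 192 alternatives, and the other 47 all came from 5 TPM or any count as the rule for detection, none from thinning.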
